A study of Mus musculus with 15 samples.

Results

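Of the 24346 gene symbols in an expression table of mouse brain cells, 9 encode the homeodomain factors treated here: Isl1, Isl2, Pou4f1, Pou4f2, Pou4f3, Phox2a, Tlx2, Hmx1 and Prrxl1. They were chosen by symbol with their levels in these libraries already known, as factors of sensory and autonomic neurons that were high in induced cells and low in both other cell types. Their levels are therefore given as a description, without a test. All 9 were in the table, and 8 of them, all but Prrxl1, reached 1 FPKM (the number of sequenced fragments of a gene, scaled by its length and by the size of the library) in at least 3 of the 15 libraries, the filter used for testing genes.

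The study asked whether chemicals can turn astrocytes into neurons. Total RNA of C57BL/6 mouse brain cells was sequenced in 5 groups of 3 libraries each, namely starting astrocytes (D0), chemical-induced neurons at day 4 (D4), day 8 (D8) and day 16 (D16), as the labels call them, and primary neurons (PN). All groups share the strain and the organ of origin. The series title places the reprogramming in vivo, but the labels do not say whether the induced cells came from brain or from culture, and they give neither the chemicals nor the brain region nor the age of the mice. Whether the 3 libraries of each group are separate animals or cultures is not labelled, so the spread between them may be technical.

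LIM homeodomain factors such as Isl1 and Isl2, and POU4 (Brn3) factors such as Pou4f1, are switched on as many neurons leave the cell cycle, and combinations of them set the identity of sensory ganglion, motor, retinal and inner ear cells. Phox2a directs the autonomic and noradrenergic program, Tlx2 is known for its role in the neurons of the gut, and Hmx1 and Prrxl1 mark somatosensory and pain-relay neurons. Most neurons of the cerebral cortex express none of these genes at a high level, whereas the sensory and autonomic ganglia, where several of them are found together, lie outside the brain.

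The sequence just upstream of the transcription start is shown for the members that the results turn on, namely Hmx1 and Isl2, with the highest levels in induced cells, Isl1, with the steepest climb after D4, and Pou4f1, with the largest number of CpG pairs. Each run is the 250 bases before the start in RefSeq (build GRCm38.p6), 5′ to 3′ on the gene's own strand. Capitals mark the letters TGACGTCA (the cAMP response element), TGACG (its left part) and CAGCTG (an E-box), on either strand. The lines are the upstream bases of Hmx1 at chr5:35388611-35388860 on the plus strand, Isl2 at chr9:55540899-55541148 on the plus strand, Isl1 at chr13:116309689-116309938 on the minus strand and Pou4f1 at chr14:104468000-104468249 on the minus strand.
Hmx1: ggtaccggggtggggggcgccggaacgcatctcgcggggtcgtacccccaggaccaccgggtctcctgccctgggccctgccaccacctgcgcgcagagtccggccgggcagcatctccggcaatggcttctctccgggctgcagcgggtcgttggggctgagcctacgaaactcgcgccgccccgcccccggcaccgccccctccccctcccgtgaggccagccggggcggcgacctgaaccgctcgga
Isl2: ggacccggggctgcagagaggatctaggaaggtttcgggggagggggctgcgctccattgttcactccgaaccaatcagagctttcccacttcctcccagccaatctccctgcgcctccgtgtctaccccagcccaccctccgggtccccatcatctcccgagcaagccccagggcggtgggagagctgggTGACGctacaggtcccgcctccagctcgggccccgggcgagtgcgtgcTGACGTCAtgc
Isl1: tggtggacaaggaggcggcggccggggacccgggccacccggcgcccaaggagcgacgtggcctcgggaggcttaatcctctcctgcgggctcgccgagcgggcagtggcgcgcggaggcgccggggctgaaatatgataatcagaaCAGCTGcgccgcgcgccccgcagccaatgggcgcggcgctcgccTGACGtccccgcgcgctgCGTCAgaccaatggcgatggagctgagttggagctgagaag
Pou4f1: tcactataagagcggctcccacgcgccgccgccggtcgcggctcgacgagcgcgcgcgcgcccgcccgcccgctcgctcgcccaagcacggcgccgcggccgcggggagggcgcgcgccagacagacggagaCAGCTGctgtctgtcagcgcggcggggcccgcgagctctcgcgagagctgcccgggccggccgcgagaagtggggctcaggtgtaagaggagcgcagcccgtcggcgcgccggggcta

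The promoters of 7 of the 9 members were matched by symbol in a table of 32841 promoters (300 bases each, 250 before and 50 after the start), and Tlx2 and Pou4f3 were not matched. Isl2 was the only matched member with TGACGTCA, which ended 4 bases before the start and which 1.79% of all promoters hold on either strand. TGACG was added after the sequences had been seen. It occurs in 20.8% of all promoters and stood in Isl1 and in Isl2, in both at 59 bases before the start, with a reverse copy (CGTCA) 41 bases before the start in Isl1. In Isl2 the other copies of TGACG lie within TGACGTCA. CAGCTG was found in Isl1 and Pou4f1 and in 16.3% of all promoters. The homeodomain core TAATTA (5.29% of all promoters), the E-box CAGATG (17.2%) and the TATA box TATAAA (13.6%) were in 0 of the 7 windows, which says only that these letters are not there.

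The matched promoters were rich in CG pairs. Pou4f1 had 57 CpG pairs in 300 bases, Hmx1 38, Isl1 37, Phox2a 30, Isl2 23, Pou4f2 18 and Prrxl1 12, against a median of 7 over all promoters with quartiles of 3 and 20. The counts of Pou4f1, Hmx1, Isl1, Phox2a and Isl2 lay above the upper quartile. Isl2 has in GENCODE a longer transcript that starts further upstream than the RefSeq start used here.

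The labels were checked against marker genes before the members were read. The summed FPKM of 8 astrocyte markers was 688 to 1563 in D0, 445 to 521 in D4, 93.3 to 109 in D8, 44.4 to 54.5 in D16 and 125 to 214 in PN. The summed FPKM of 8 neuron markers was 276 to 390 in D0, 472 to 535 in D4, 689 to 781 in D8, 809 to 886 in D16 and 3149 to 4273 in PN. The sums thus moved away from D0, and the neuron sum of D16 stayed below that of PN, but not every marker followed. Stmn2, a neuron marker, averaged 304 FPKM in D0, 149 FPKM in D4 and 213 FPKM in D16. Snap25 and Syp averaged 172 and 196 FPKM in D16 and 195 and 259 FPKM in PN, with overlapping libraries. By the calls defined below, 6 of the 8 neuron markers were higher in D16 than in D0, and 5 were lower in D16 than in PN. The rest were not called. Libraries of 1 group correlated at 0.966 to 0.987 (Pearson r of log2(FPKM + 1) across genes). Libraries of different groups correlated at 0.647 to 0.988, and D16 with D8 at 0.952 to 0.988, as closely in some cases as libraries of 1 group. Read depth, read from the steps between low values and relative to D0 replicate 1, was 0.82 to 1.46 in D0, 0.71 to 1.70 in the induced cells and 1.71 to 2.05 in PN, so the low levels in PN were measured in the deepest libraries.

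All 9 members together were nearly silent in astrocytes, present by D4 and highest at D16. Their summed FPKM was 1.14, 0.123 and 0.109 in the 3 D0 libraries, 24.3, 24.6 and 24.1 in D4, 40.5, 29.6 and 37.2 in D8, 41.1, 52.3 and 54.7 in D16, and 2.81, 1.25 and 0.569 in PN. Every induced library was above every D0 and PN library. In bulk RNA, fewer cells of a type and less RNA per cell cannot be told apart. Changes below are differences of log2(FPKM + 1) with the standard error of a linear model of all 15 libraries, a scale on which low genes appear to change less than they do.

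**Figure D1:**
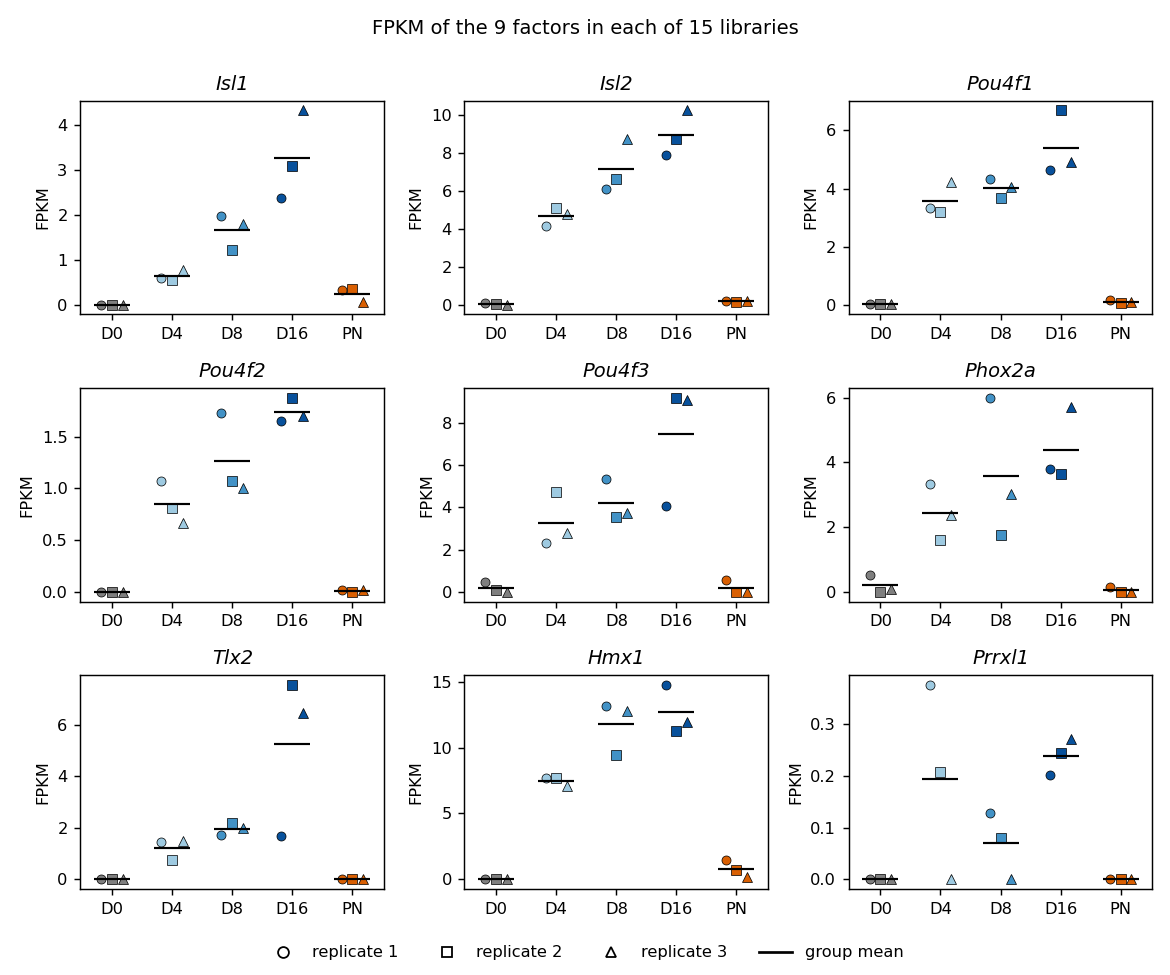
FPKM of each of the 9 members in every library (points) by group, with the group mean (line), for 3 libraries in each of D0, D4, D8, D16 and PN. The D16 points of every member lie above all its D0 and PN points, and Hmx1 reaches the highest level, 14.8 FPKM.

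Isl1 (chromosome 13, start 116298281, end 116309689, minus strand in GENCODE on GRCm38, as for the genes that follow) is a LIM homeodomain factor needed for sensory, sympathetic and spinal motor neurons. It was listed at 0 in all 3 D0 libraries, stood at 0.592, 0.543 and 0.758 FPKM in D4, 1.96, 1.22 and 1.79 FPKM in D8 and 2.38, 3.08 and 4.32 FPKM in D16, and was 0.315, 0.340 and 0.0677 FPKM in PN. The 4 time points formed 4 steps with no overlap, and PN lay below D4. The difference between D16 and D0 was 2.06 ± 0.18, and that between D16 and PN was 1.76 ± 0.18 (log2, SE). Mean Isl1 in D16 was 5.16 times that in D4, the highest such ratio among the members.

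Isl2 (chromosome 9, start 55538672, end 55546180, plus strand), the close relative of Isl1 and a factor of motor and retinal ganglion neurons, was higher than Isl1 in each induced library. It stood at 0.110, 0.0378 and 0 FPKM in D0, 4.13, 5.12 and 4.79 FPKM in D4, 6.09, 6.62 and 8.74 FPKM in D8, 7.90, 8.76 and 10.26 FPKM in D16 and 0.210, 0.135 and 0.193 FPKM in PN. D8 lay above D4 in every library, whereas D16 and D8 overlapped. The D16 mean, 8.97 ± 1.19 FPKM, was 50.01 times the PN mean of 0.179 ± 0.0392 FPKM (SD, n = 3 each), and the difference between D16 and D0 was 3.24 ± 0.16 (log2, SE).

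Pou4f1 (chromosome 14, start 104461676, end 104467999, minus strand) encodes the Brn3 factor of sensory ganglia and the habenula. Its levels were 0.0248, 0.0170 and 0.0301 FPKM in D0, 3.32, 3.18 and 4.23 FPKM in D4, 4.32, 3.68 and 4.07 FPKM in D8, 4.63, 6.70 and 4.91 FPKM in D16 and 0.161, 0.0483 and 0.0869 FPKM in PN. Most of the level was in place by D4, the D16 mean being 1.51 times the D4 mean. The difference between D16 and D0 was 2.63 ± 0.16, and between D16 and PN 2.53 ± 0.16 (log2, SE).

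Pou4f2 (chromosome 8, start 78433010, end 78436645, minus strand), the Brn3 factor of retinal ganglion cells, had the lowest level of its family in the induced cells. It was listed at 0 in all D0 libraries and stood at 1.08, 0.815 and 0.665 FPKM in D4, 1.73, 1.08 and 0.9997 FPKM in D8, 1.65, 1.88 and 1.70 FPKM in D16, and 0.0161, 0 and 0.0173 FPKM in PN. D4 and D8 overlapped, as did D8 and D16. D16 exceeded D0 by 1.45 ± 0.15 (log2, SE).

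Pou4f3 (chromosome 18, start 42394539, end 42397249, plus strand), the Brn3 factor of inner ear hair cells, which is also found in sensory ganglia, differed more among libraries than the other Brn3 genes at D4 and D16, by 2.04 and 2.25 times between its lowest and highest library, while at D8 Pou4f2 did (1.73 times, against 1.51 for Pou4f3). Its levels were 0.487, 0.0681 and 0 FPKM in D0, 2.32, 4.73 and 2.78 FPKM in D4, 5.35, 3.55 and 3.75 FPKM in D8, 4.08, 9.20 and 9.09 FPKM in D16 and 0.544, 0 and 0 FPKM in PN. D16 replicate 1 lay within the D8 range, and the other 2 D16 libraries lay above it. D16 exceeded D0 by 2.79 ± 0.29 (log2, SE).

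Hmx1 (chromosome 5, start 35389108, end 35399730, plus strand), a factor of somatosensory and sympathetic ganglia, was the highest member in every induced group. It was listed at 0 in all D0 libraries and stood at 7.69, 7.69 and 7.09 FPKM in D4, 13.2, 9.44 and 12.8 FPKM in D8, 14.8, 11.3 and 11.96 FPKM in D16 and 1.42, 0.728 and 0.205 FPKM in PN. D8 was above D4 in every library, and D16 overlapped with D8. The difference between D16 and D0 was 3.76 ± 0.22, the highest of the 9, and that between D16 and PN was 2.99 ± 0.22 (log2, SE). The D16 mean was 16.2 times the PN mean, and the PN mean of Hmx1, 0.784 FPKM, was the highest of the members.

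Prrxl1 (chromosome 14, start 32599407, end 32649246, plus strand), a factor of pain-sensing ganglion cells and their targets in the dorsal horn, was close to 0. It was listed at 0 in all D0 and PN libraries and stood at 0.377, 0.208 and 0 FPKM in D4, 0.129, 0.0797 and 0 FPKM in D8 and 0.201, 0.245 and 0.271 FPKM in D16. It passed no filter, and its D4 and D8 ranges reached 0.

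Phox2a (chromosome 7, start 101818313, end 101822726, plus strand) drives the autonomic and noradrenergic program. It stood at 0.515, 0 and 0.0792 FPKM in D0, 3.33, 1.59 and 2.37 FPKM in D4, 6.00, 1.75 and 3.01 FPKM in D8, 3.79, 3.64 and 5.70 FPKM in D16 and 0.142, 0 and 0 FPKM in PN. The D8 libraries differed among themselves by 3.42 times, and their range overlapped with those of D4 and D16, while every D16 library lay above every D4 library. The difference between D16 and D0 was 2.17 ± 0.29 (log2, SE). Without D8 replicate 1, the difference between D8 and D4 went to -0.01. No label pairs the libraries, but same-number libraries of D8 and D4 deviated alike (see the processing section). Within these same-number pairs D8 was higher by 0.69, 0.09 and 0.25 (log2(FPKM + 1)). On chromosome 7 the last bases of Phox2a overlap the end of Inppl1, a phosphatase gene on the opposite strand, and whether counting used the strand is not given in the sources used here. Inppl1 stood at 38.6 to 43.7 FPKM in D0, 20.2 to 26.97 FPKM in the induced cells and 2.24 to 4.92 FPKM in PN. Phox2a was low both in D0, with the highest Inppl1, and in PN, with the lowest, and the part of shared reads in its values was not tested. Isl2 and Hmx1 also overlap annotated transcripts, for which no value was used here.

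Tlx2 (chromosome 6, start 83068324, end 83070293, minus strand), known from neurons of the gut wall, varied most among the D16 libraries. It was listed at 0 in all D0 and PN libraries and stood at 1.45, 0.731 and 1.47 FPKM in D4, 1.70, 2.19 and 1.99 FPKM in D8 and 1.69, 7.55 and 6.46 FPKM in D16. D16 replicate 1 was slightly below the D8 libraries, and the other 2 were above all of them. D16 exceeded D0 by 2.47 ± 0.31 (log2, SE).

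Read across the members, every D16 library was above every D0 library for 9 of 9, where 26.3% of the 19480 genes with any value did the same, and above every PN library for 9 of 9, where 28.0% did. Because the members were chosen with these levels known, nothing is read from these counts, nor from the counts and medians that follow. Against D0, 8 of 9 were above in every library at D4 (25.5% of genes) and 8 of 9 at D8 (26.3% of genes), with Prrxl1 the exception at both. The median change of the 9 members was 1.51 between D4 and D0, 1.85 between D8 and D0 and 2.47 between D16 and D0, and the median over all 13983 genes tested was -0.01, 0.00 and -0.01. Between D16 and PN the members' median was 2.47 and that of all genes 0.06. The members' medians include Prrxl1, which was not among the genes tested. These comparisons share libraries, D0 among the first 3 and D16 between the last 2.

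**Figure D2:**
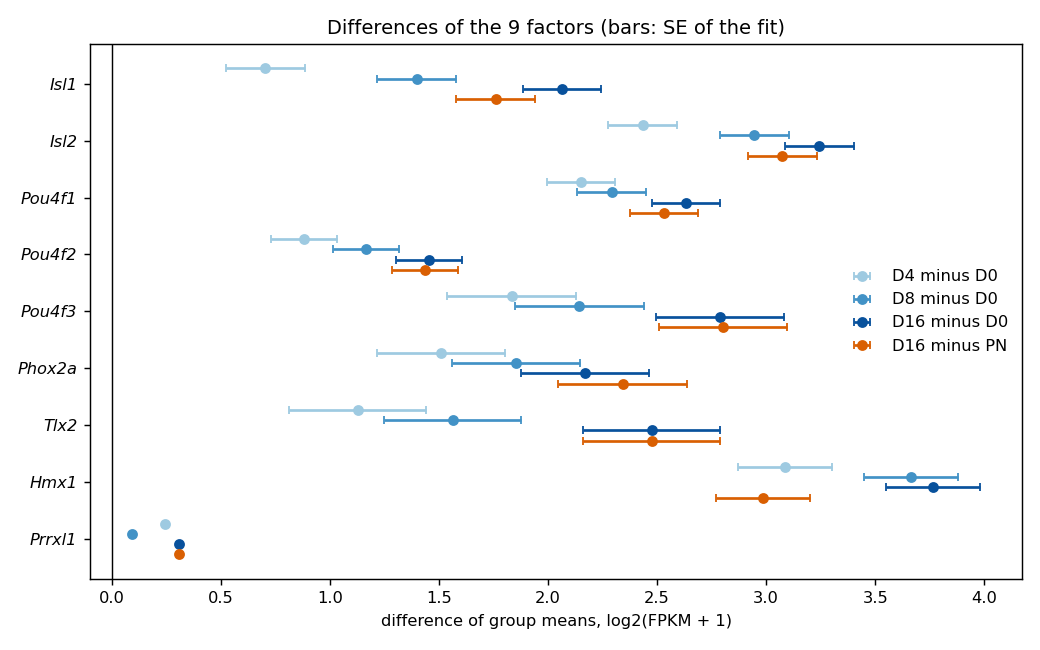
Change of each member in log2(FPKM + 1), for D4, D8 and D16 against D0 and for D16 against PN, with bars of 1 standard error where the member passed the filter. For D16 against D0, Hmx1 and Isl2 lie furthest to the right, at 3.76 and 3.24, and Prrxl1 furthest to the left, at 0.31.

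Within the induced cells the members were compared from day to day. Between D8 and D4, Isl1, Isl2, Tlx2 and Hmx1 were above in every library (4 of 9, against 8.63% of genes), and between D16 and D8 Isl1, Pou4f1 and Prrxl1 were (3 of 9, against 7.20% of genes). Within the 3 same-number pairs of D8 and D4, Pou4f2 and Phox2a were higher in D8 in every pair as well, which makes 6 of 9 members, where 18.9% of genes did the same. Pou4f1 and Pou4f3 were higher in 2 of the 3 pairs and Prrxl1 in 0. Prrxl1 stood at no more than 0.271 FPKM in D8 and D16, near 0. The members were chosen with their levels known, so nothing is read from the counts of this paragraph. After Isl1, Tlx2 had the highest ratio of the D16 mean to the D4 mean, 4.31, followed by Pou4f3 at 2.28, Pou4f2 at 2.04, Isl2 at 1.92, Phox2a at 1.80 and Hmx1 at 1.69. The order of the levels at D16 was Hmx1, Isl2, Pou4f3, Pou4f1, Tlx2, Phox2a, Isl1, Pou4f2 and Prrxl1. Hmx1 lay above Isl2, Isl1 above Pou4f2, and Pou4f2 above Prrxl1 in every D16 library, whereas the 6 members from Isl2 to Isl1 had overlapping ranges from 1 neighbour to the next. D16 replicate 1 was the lowest D16 library for 7 members, all but Phox2a and Hmx1, and the highest for Hmx1. Its part in the lower values was not tested.

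Over the 15 libraries the 8 members that passed the filter correlated with each other at 0.84 to 0.99 (Pearson r of log2(FPKM + 1)), a description in which the groups supply most of the range. The genes most like each member, among the tested genes that reached 5 FPKM in a group (11618 or 11619 for each member), were other developmental regulators in several cases. For Isl1 they were Ankrd34b (r = 0.98), Hoxb9 (0.98) and Hoxc10 (0.97), for Isl2 Gata4, Prss16 and Epcam (all 0.99), and for Pou4f1 Hoxd8, Six2 and Gata4 (0.995, 0.995 and 0.993). Pou4f2 was closest to Slfn5 (0.99), Pgr15l (0.99) and Ebf3 (0.98), and Pou4f3 to Ebf3 (0.98), Xylb (0.97) and Slfn5 (0.97). Phox2a was closest to Ror2, Rspo4 and C130021I20Rik (0.98, 0.98 and 0.97), Tlx2 to Nkx6-1, Hoxd13 and Pax1 (all 0.98), and Hmx1 to Gm4980, Zfp941 and Epcam (0.99, 0.99 and 0.98).

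To set the members among their relatives and partners, 8 gene lists were tested, with 160 symbols of which 112 passed the filter. A gene was called at a Benjamini-Hochberg adjusted p below 0.05 (limma, adjusted over all 13983 genes) with a log2 change of at least 1 either way. Over all genes tested, 16.6% were called higher and 18.7% lower between D16 and D0, and 19.6% higher and 15% lower between D16 and PN. These shares are the background for all list counts below. The earlier comparisons called 13.6% higher and 14.2% lower for D4 against D0, and 15.5% higher and 16.9% lower for D8 against D0. List genes under 1 FPKM in D0 pass the filter only through another group, so a high share of calls among them has no independent weight. The same holds for genes under 1 FPKM in PN, and both numbers are given with the counts of D16 against D0 and against PN.

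**Figure D3:**
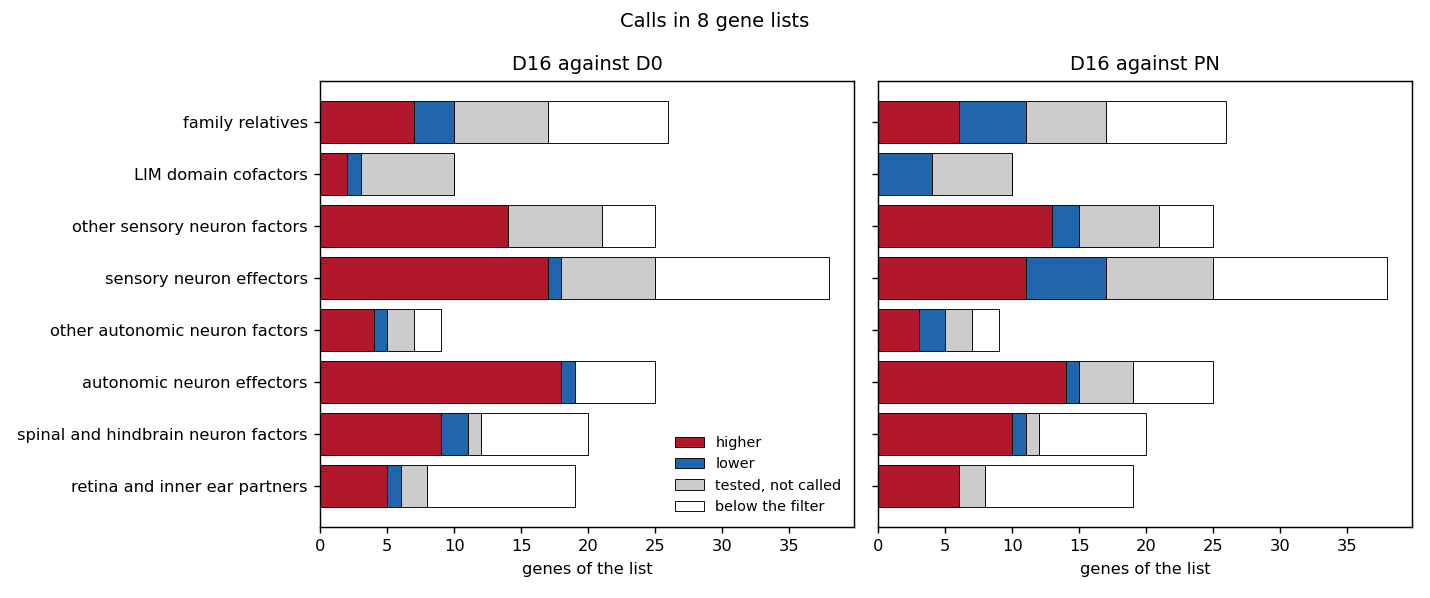
Number of genes of each of the 8 lists that were called higher, called lower, tested and not called, or below the filter, for D16 against D0 (left) and D16 against PN (right). Against D0, autonomic neuron effectors show 18 higher and 1 lower, and LIM domain cofactors 2 higher and 1 lower.

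The closest relatives of the members did not move as a block. Of 26 relatives from the LIM homeodomain, POU, Phox, Tlx, Hmx and Prrx families, 17 were tested (9 of them under 1 FPKM in D0). Between D16 and D0, 7 were called higher, 3 lower and 7 neither, against 16.6% higher and 18.7% lower over all genes. The median change was 0.48. Tlx1, a factor of spleen and hindbrain development, stood at 4.78 ± 0.81 FPKM in D16 and was listed at 0 in all D0 and PN libraries (2.52 ± 0.15, adjusted p = 2.6e-09 against D0). Tlx3, which selects the excitatory sensory fate in the dorsal horn, was at 2.71 ± 0.519 FPKM in D16 and listed at 0 in D0 (1.88 ± 0.18, adjusted p = 3.6e-07). Lmx1b, a factor of serotonergic and dorsal horn neurons, was at 7.72 ± 2.54 FPKM in D16 and 0.120 ± 0.208 FPKM in D0 (2.94 ± 0.25, adjusted p = 8.6e-08), and Pou3f1, of Schwann cells and cortical neurons, at 11.1 ± 1.82 FPKM in D16 and 0.769 ± 0.140 FPKM in D0 (2.77 ± 0.23, adjusted p = 1.0e-07). Lhx5, Lhx6 and Lhx1, factors of spinal and forebrain interneurons, were also higher, by 2.19, 2.43 and 1.22.

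In the other direction, Lhx2, a selector of forebrain progenitors, fell to 20.4 ± 2.56 FPKM in D16, against 82.8 ± 12.1 FPKM in D0 and 92.6 ± 3.58 FPKM in PN. Its change was -1.97 ± 0.15 against D0 (adjusted p = 3.2e-08) and -2.14 ± 0.15 against PN (adjusted p = 1.5e-08). Prrx1 and Prrx2, mesenchymal relatives of Prrxl1, fell by 2.61 and 2.64 on the log2 scale against D0. Pou3f3, Pou3f4, Pou3f2, Pou6f1, Pou2f1, Lhx9 and Lmx1a were not called between D16 and D0, with changes of -0.91 to 0.91.

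Against PN, 6 relatives were called higher and 5 lower (7 of the 17 tested under 1 FPKM in PN). Pou3f1 (-1.37 ± 0.23, adjusted p = 0.00013), Lhx6 (-1.37), Pou3f2 (-1.33), Pou6f1 (-1.63) and Lhx2 were lower in D16, while Tlx1, Tlx3, Lmx1b, Lhx5, Lhx1 and Prrx1 were higher. The Prrx1 call was lost without D16 replicate 3 or PN replicate 1 (a change just under the minimum of 1, and 0.95), and with quantile normalization those of Lhx1 (0.89) and Prrx1 (0.73) were. Hmx2 and Hmx3, the 2 relatives of Hmx1, were below the filter, at no more than 0.349 and 0.888 FPKM.

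**Figure D4:**
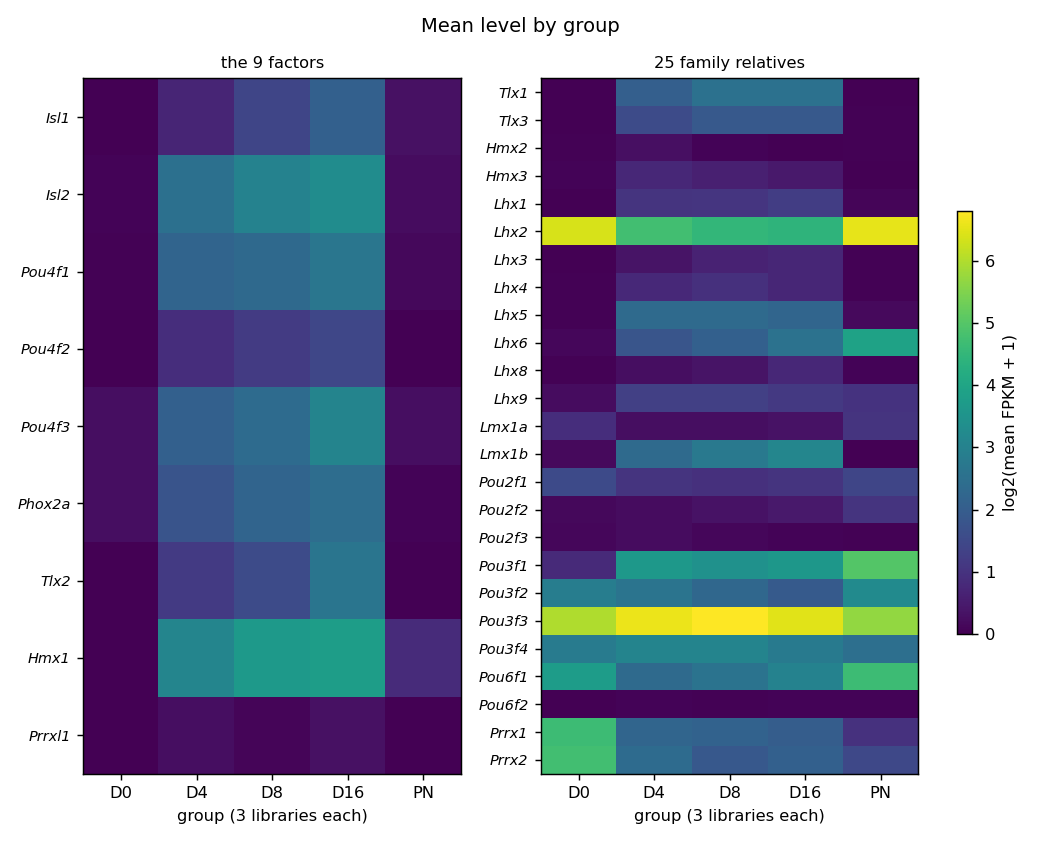
Mean level of the 9 members and 25 of their relatives in D0, D4, D8, D16 and PN, as log2 of mean FPKM plus 1, for 3 libraries per group. The members are dark in D0 and PN, and Lhx2 is bright in both, with means of 82.8 and 92.6 FPKM.

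LIM homeodomain proteins act with cofactors of the Ldb, Ssbp and Lmo families. Of 10 cofactors, all tested (1 under 1 FPKM in D0), 2 were called higher, 1 lower and 7 neither between D16 and D0, against 16.6% higher and 18.7% lower over all genes. With no minimum on the change, 5 passed. Lmo1 stood at 55.1 ± 4.40 FPKM in D16 and 12.3 ± 5.89 FPKM in D0 (2.20 ± 0.28, adjusted p = 6.0e-06). Lmo2 was at 7.04 ± 2.22 FPKM in D16 and 2.18 ± 0.381 FPKM in D0 (1.31 ± 0.24, adjusted p = 0.00026). Lmo4, which competes with LIM factors for Ldb proteins, was at 33.9 ± 8.92 FPKM in D16 and 194 ± 41.6 FPKM in D0 (-2.49 ± 0.29, adjusted p = 2.5e-06). Against PN, 4 were called lower and 0 higher (0 under 1 FPKM in PN, and 9168 of all genes at an unadjusted p below 0.05 in limma). The 4 were Lmo3 (-4.49 ± 0.15), Ldb2 (-3.44 ± 0.42), Lmo4 (-3.02 ± 0.29) and Ssbp2 (-2.11 ± 0.15), with adjusted p of 4.1e-06 or less.

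Where tested, other sensory neuron transcription factors were more often higher than lower between D16 and D0 (16.6% and 18.7% over all genes). Of 25 such factors, 21 were tested (12 under 1 FPKM in D0), and 14 were called higher, 0 lower and 7 neither between D16 and D0, with a median change of 1.71. Mafa, a factor of touch-sensing neurons, stood at 11.01 ± 4.27 FPKM in D16 and 0.0350 ± 0.0607 FPKM in D0 (3.47 ± 0.31, adjusted p = 1.9e-07), Neurod1, a neurogenic factor, at 9.17 ± 0.983 FPKM in D16 and 0.0770 ± 0.0695 FPKM in D0 (3.24 ± 0.21, adjusted p = 6.5e-09), and Shox2, of touch-sensing neurons, at 7.26 ± 1.28 FPKM in D16 and 0.104 ± 0.138 FPKM in D0 (2.90 ± 0.16, adjusted p = 1.5e-09). Eya2, a coactivator in placode and ganglion development, followed at 2.60 ± 0.21 (adjusted p = 5.4e-08). Runx1, Six4, Eya1, Klf7, Etv1 and Maf were among the 7 that were not called, which had changes of -0.65 to 0.50. Neurog1 and Prdm12, which start the sensory lineage and its pain-sensing branch, were at most 0.246 and 0.251 FPKM in any library and were not tested.

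Against PN, 13 of the 21 sensory factors were called higher and 2 lower, with 13 of the 21 under 1 FPKM in PN. Shox2 (3.01 ± 0.16), Mafa (2.80 ± 0.31) and Ebf3 (2.52 ± 0.18) were higher in D16, with adjusted p of 1.9e-06 or less, and Klf7 (-2.72 ± 0.23, adjusted p = 1.1e-07) and Neurod1 (-1.48) were lower. At D4 against D0, 10 were called higher and 1 lower, and the same counts held at D8.

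Effector genes of sensory neurons, meaning receptors, channels, peptides and neurofilaments, gave a mixed picture by class. Of 38, 25 were tested (16 under 1 FPKM in D0). Between D16 and D0, 17 were called higher, 1 lower and 7 neither, against 16.6% higher and 18.7% lower over all genes. The median change was 1.70. Among the largest changes were those of peptide genes. Gal (galanin) stood at 228 ± 146 FPKM in D16 and 0.606 ± 0.822 FPKM in D0 (6.93 ± 0.56, adjusted p = 6.7e-08), Sst (somatostatin) at 42.1 ± 29.8 FPKM in D16 and 0.0823 ± 0.143 FPKM in D0 (5.10 ± 0.56, adjusted p = 1.5e-06), and Tac1 (substance P) at 35.7 ± 15.3 FPKM in D16 and 0.0741 ± 0.128 FPKM in D0 (4.997 ± 0.38, adjusted p = 3.7e-08). Nefl, a neurofilament, reached 156 ± 66.7 FPKM in D16, against 4.90 ± 3.82 FPKM in D0 (4.96 ± 0.50, adjusted p = 6.9e-07). Ntrk2, the receptor for brain-derived neurotrophic factor, fell by 2.37 on the log2 scale.

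Calca, which encodes the pain peptide CGRP, had its highest mean at D4 and not, as the members, at D16. It averaged 3.34 ± 1.76 FPKM in D0, 2791 ± 2032 FPKM in D4, 1054 ± 686 FPKM in D8, 166 ± 109 FPKM in D16 and 0.978 ± 1.03 FPKM in PN. Its changes against D0 were 9.12 ± 0.65 at D4, 7.83 ± 0.65 at D8 and 5.06 ± 0.65 at D16, all called, whereas D8 against D4 and D16 against D8 were not. Its neighbour Calcb averaged 11.1 ± 4.92 FPKM in D16, against 177 ± 155 FPKM in D4, and the Calca and Calcb messages are alike enough that reads could be split between them.

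Several channels and receptors of pain-sensing neurons were below the filter, but not all. Trpa1, an irritant-sensing channel, passed it, at 1.34 ± 0.776 FPKM in D16 and 0.213 ± 0.271 FPKM in D0. Trpv1, the capsaicin receptor, was at most 0.277 FPKM in any library, Scn10a and Scn11a, the sodium channels of pain fibres, at most 0.0598 and 0.107 FPKM, and Mrgprd, of skin-innervating fibres, at most 0.0428 FPKM. Between D16 and PN, 11 effectors were called higher and 6 lower (9 of the 25 tested under 1 FPKM in PN). Gal (6.84 ± 0.56), Calca (6.23 ± 0.65), Pvalb (3.62 ± 0.32) and Calcb (3.48 ± 0.53) had the largest changes, with adjusted p of 4.0e-05 or less. Sst (-3.16), Asic2 (-3.26), Slc17a6 (-2.96), Asic1 (-1.88), Ntrk3 (-1.73) and Ntrk2 (-2.61) were the 6 lower ones.

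**Figure D5:**
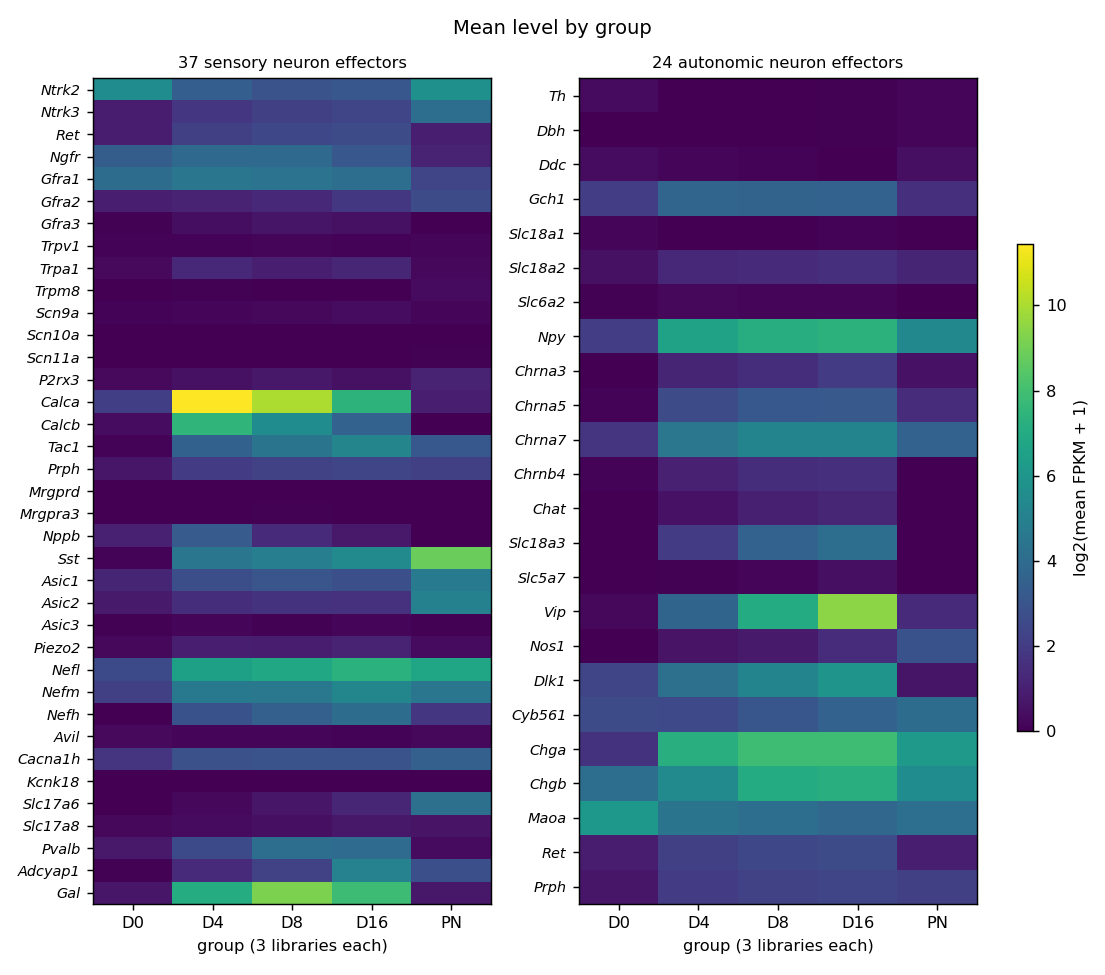
Mean level of 37 sensory neuron effectors (left) and 24 autonomic neuron effectors (right) in D0, D4, D8, D16 and PN, as log2 of mean FPKM plus 1, for 3 libraries per group. Calca peaks at D4 with a mean of 2791 FPKM, Vip is highest at D16 with 697 FPKM, and Th, Dbh, Trpv1 and Scn10a are dark in all groups.

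Factors of autonomic neurons other than Phox2a were few, and they split. Of 9, 7 were tested (2 under 1 FPKM in D0). Between D16 and D0, 4 were called higher, 1 lower and 2 neither, against 16.6% higher and 18.7% lower over all genes. Hand2, the sympathetic bHLH factor, was at 8.96, 8.14 and 18.8 FPKM in D16 and 0.221, 0.274 and 0.324 FPKM in D0 (3.26 ± 0.27, adjusted p = 6.9e-08), and listed at 0 in PN. Sox11 (2.88 ± 0.22, adjusted p = 4.1e-08), Insm1 (1.93 ± 0.38, adjusted p = 0.00042) and Gata3 (1.90) were also higher. Against PN, Hand2 (3.61 ± 0.27), Gata2 (2.84 ± 0.37) and Gata3 (1.92) were the 3 called higher, and 2 were called lower (3 of the 7 tested under 1 FPKM in PN). Sox4, 1 of them, was lower against PN by -1.05 ± 0.31 (adjusted p = 0.0079), a call lost without D16 replicate 2 (-0.83), PN replicate 1 (-0.89) or PN replicate 3 (-0.79).

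Of 25 autonomic effector genes, 19 were tested (11 under 1 FPKM in D0). Between D16 and D0, 18 were called higher and 1 lower, with a median change of 1.90. Over all genes tested, 16.6% were called higher and 18.7% lower. The count has no independent weight, since the 11 genes low in D0 passed the filter only through other groups. Against PN, 14 were higher, 1 lower and 4 not called (7 under 1 FPKM in PN), where 19.6% of all genes were higher and 15% lower. The list shares members with the sensory effectors, Ret and Prph among them. Vip, a peptide of parasympathetic and gut neurons, stood at 112, 789 and 1190 FPKM in D16 and 0.137, 0.475 and 0 FPKM in D0 (8.64 ± 0.69, adjusted p = 5.4e-08). Chga, of secretory granules, averaged 235 ± 83.4 FPKM in D16 and 2.19 ± 1.51 FPKM in D0 (6.24 ± 0.30, adjusted p = 3.9e-10), and Npy 165 ± 111 FPKM in D16 and 3.24 ± 0.823 FPKM in D0 (5.08 ± 0.37, adjusted p = 1.9e-08).

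Transmitter genes, cholinergic and noradrenergic, were partly higher and partly below the filter. Slc18a3, the vesicular transporter of acetylcholine, averaged 16.5 ± 4.78 FPKM in D16 and 0.0270 ± 0.0468 FPKM in D0 (4.06 ± 0.31, adjusted p = 3.9e-08). Chat, which makes acetylcholine, was at 1.32 ± 0.523 FPKM in D16 and 0.0193 ± 0.0175 FPKM in D0 (1.16 ± 0.22, adjusted p = 0.00033), while Slc5a7, the choline transporter, was at 0.365 FPKM in D16 and below the filter. The nicotinic receptor genes Chrna7, Chrna5, Chrna3 and Chrnb4 were higher by 3.43, 3.09, 1.90 and 1.48. Of the genes for noradrenaline and other monoamines, Slc18a2, the vesicular monoamine transporter, was at 2.02 ± 0.331 FPKM in D16 and 0.441 ± 0.149 FPKM in D0 (1.07 ± 0.18, adjusted p = 0.00013), with a change of 0.98, below the minimum of 1, without D0 replicate 3. Quantile normalization also took Slc18a2 and Chat below that minimum, at 0.77 and 0.97. Gch1, which makes the cofactor of tyrosine hydroxylase, was at 11.1 ± 2.72 FPKM in D16 and 3.16 ± 0.987 FPKM in D0 (1.54 ± 0.28, adjusted p = 0.00025). The enzymes that make noradrenaline were below the filter. Th was at most 0.322 FPKM in any library and at 0.116, 0 and 0 FPKM in D16, Dbh was at most 0.149 FPKM, and Ddc did not pass either, nor did the transporters Slc18a1 and Slc6a2. Maoa, which breaks down noradrenaline, fell by 2.31 on the log2 scale.

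Several members also act in the spinal cord, retina or inner ear, so their partners there were counted. Of 20 spinal and hindbrain factors, 12 were tested (8 under 1 FPKM in D0). Between D16 and D0, 9 were called higher, 2 lower and 1 neither, against 16.6% higher and 18.7% lower over all genes. The median change was 1.84. Lmx1b, also counted among the family relatives, was 1 of the 9. Aldh1a2, the retinoic acid enzyme of motor columns, was at 14.3 ± 2.12 FPKM in D16 and 0.417 ± 0.113 FPKM in D0 (3.43 ± 0.23, adjusted p = 8.4e-09), and Nkx6-1, a ventral factor, at 6.16 ± 3.37 FPKM in D16 and 0.0567 ± 0.0982 FPKM in D0 (2.65 ± 0.26, adjusted p = 5.2e-07). Mnx1, the motor neuron factor, was higher by 1.79. Nkx6-2 fell by 2.65 and Bhlhe22 by 1.55 on the log2 scale. Lhx3 and Lhx4, which pair with Isl1 in motor neurons, were below the filter. Against PN, 10 were called higher and 1 lower (10 of the 12 tested under 1 FPKM in PN).

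Of 19 retinal and inner ear partners, 8 were tested (4 under 1 FPKM in D0). Between D16 and D0, 5 were called higher, 1 lower and 2 neither, against 16.6% higher and 18.7% lower over all genes. Espn, which bundles actin in hair cells, was at 11.5 ± 2.30 FPKM in D16 and 0.798 ± 0.132 FPKM in D0 (2.78 ± 0.23, adjusted p = 6.8e-08), with Eomes (1.79), Barhl2 (1.90), Dlx1 (1.41 ± 0.35, adjusted p = 0.0026) and Myo7a (1.23, and 0.92 with quantile normalization, where its call was lost) also higher. Myo6 was lower by -1.17 ± 0.29 (adjusted p = 0.0028), and without D0 replicate 3 its change was -0.84 and the call was lost. Atoh7 and Atoh1, which start retinal ganglion cells and hair cells, were below the filter. Against PN, 6 of the 8 were called higher and 0 lower (4 under 1 FPKM in PN).

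Between adjacent days after D4 few list genes were called. D16 was not tested against D4, where some group means were far apart, as for Vip at 697 FPKM in D16 and 11.7 FPKM in D4. Between D8 and D4, 0.501% of genes were called higher and 1.51% lower, and 0 of the family relatives, cofactors, other sensory factors, other autonomic factors, spinal factors and retinal partners were called, where 2010 of all genes had an unadjusted p below 0.05 (limma). The exceptions were effectors. Vip averaged 133 ± 37.2 FPKM in D8 and 11.7 ± 9.13 FPKM in D4 (3.58 ± 0.69, adjusted p = 0.0084), Slc18a3 11.1 ± 4.09 FPKM in D8 and 2.998 ± 2.17 FPKM in D4 (1.67 ± 0.31, adjusted p = 0.0074), and Chgb, Pvalb and Nppb changed by 1.53, 1.57 and -1.81. In the fit of the 2 groups alone, Slc18a3 and Nppb lost their calls (adjusted p of 0.058 and 0.051). Without D4 replicate 3, Vip had an adjusted p of 0.052, Pvalb of 0.069 and Chgb of 0.18, and Chgb lost its call without any 1 of the 6 libraries (0.052 to 0.18). Pvalb also lost it without D8 replicate 2 or D8 replicate 3 (0.061 and 0.053), and Nppb without D4 replicate 2, D8 replicate 2 or D8 replicate 3 (0.074, 0.068 and 0.065). Without D4 replicate 2 the calls over all genes numbered 172, in place of 281.

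Between D16 and D8 only 0.0215% of genes were called higher and 0.00715% lower, 4 genes in all, with 1835 at an unadjusted p below 0.05 (limma). The 1 list gene among them was Adcyap1, a peptide of sensory and autonomic neurons, at 32.7 ± 27.6 FPKM in D16 and 3.65 ± 0.691 FPKM in D8 (2.55 ± 0.40, adjusted p = 0.048). The call was lost without D8 replicate 1, D8 replicate 2, D8 replicate 3 or D16 replicate 3 (adjusted p of 0.057, 0.14, 0.29 and 0.085) and with the replicate number as a block (0.062). Without D16 replicate 1, the library with the lowest levels of 7 members, 72 genes were called. Without D8 replicate 1 it was 11, and without D8 replicate 2 or D8 replicate 3 it was 1.

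Markers of other cell types were summed beside these results. Of 16 markers of neural crest and peripheral glia, which give rise to the sensory and autonomic ganglia, the summed FPKM was 64.4 to 111 in D16, 49.5 to 109 in D0 and 2.10 to 5.36 in PN. Twist1, shared with mesenchyme, made up most of the sum in D16, at 44.4, 39.9 and 77.3 FPKM, against 38.9, 29.7 and 79.6 FPKM in D0. Of the 16, 9 were tested (3 under 1 FPKM in D0). Between D16 and D0, 4 were called higher, 1 lower and 4 neither, against 16.6% higher and 18.7% lower over all genes. Foxd3 was at 4.03 ± 0.103 FPKM in D16 and 0.0591 ± 0.0232 FPKM in D0 (2.25 ± 0.15, adjusted p = 1.2e-08), Pax3 at 2.93 ± 0.698 FPKM in D16 and 0.279 ± 0.484 FPKM in D0 (1.66 ± 0.24, adjusted p = 2.7e-05), and Tfap2a at 5.36 ± 0.854 FPKM in D16 and 1.46 ± 1.06 FPKM in D0 (1.44 ± 0.28, adjusted p = 0.00033). Ets1 was lower, at 3.37 ± 0.330 FPKM in D16 and 9.05 ± 1.68 FPKM in D0 (-1.19 ± 0.24, adjusted p = 0.00058), and Dhh was at 5.86 ± 1.31 FPKM in D16 and 15.8 ± 13.4 FPKM in D0 (-0.91 ± 0.54, adjusted p = 0.16). Sox10 and Pax7 were below the filter, and Foxs1 was listed at 0 in every D16 library. The part of such cells in the members' levels was not tested.

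Among the other lists, 8 microglia markers summed to 123.0 to 148 FPKM in D16 and 30.8 to 52.5 FPKM in D0, while Cx3cr1, P2ry12 and Tyrobp were listed at 0 in all D16 libraries. Oligodendrocyte markers summed to 6.93 to 8.52 FPKM in D16 and 237 to 387 FPKM in D0. Most of the D0 sum was Olig1 and Olig2, with means of 242 and 72.4 FPKM. Mbp and Mag went the other way, averaging 1.37 and 0.654 FPKM in D16 and 0.311 and 0.0504 FPKM in D0. Fibroblast and mural markers summed to 8.04 to 10.5 FPKM in D16 and 70.5 to 211 FPKM in D0. Col1a1 made up most of that D0 sum, whereas Pdgfra averaged 3.52 FPKM in D16 and 0.823 FPKM in D0. Endothelial markers summed to 7.94 to 9.49 FPKM in D16 and 1.96 to 3.93 FPKM in D0. That rise was mostly Flt1 (7.30 and 1.26 FPKM), while Pecam1, Cdh5 and Cldn5 had lower means in D16.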

How the data were processed

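Total RNA was sequenced as paired-end reads of 150 bases, per the labels. Per the labels, the authors deposited expression as FPKM, in 1 table with a column per library. The genome was mm10 (GRCm38), per the submitters' processing notes, and the aligner, the quantifier, the annotation and the strand setting are not given in the sources used here. FPKM totals ran from 548309 to 787080, and 11861 to 12907 genes per library reached 1 FPKM. Read counts were not used here, and absolute depth is unknown, so no counting intervals are given.

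Values were transformed as log2(FPKM + 1). Genes reaching 1 FPKM in at least 3 libraries were tested (13983), in 1 model of all 15 libraries with 10 residual degrees of freedom, using limma 3.58.1 in R 4.3.3 with a variance trend and Benjamini-Hochberg adjustment per comparison. The median standard error of a change was 0.20. The script was tested on simulated data. Members and lists were chosen with earlier results of these data known. Named genes are the members, up to 4 called genes per list and comparison with the largest changes among those reaching 5 FPKM, relatives reaching 1 FPKM, the 3 genes most like each member, and the markers. Other named genes were chosen after their values were seen. Some genes of the lists are counted but not reported here by name.

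Replicate numbers were checked by correlating deviations from the group means. Same-number pairs of D8 and D4 correlated at 0.33 to 0.45 and other pairs at -0.50 to 0.11, so the numbers appear to pair these groups. No label states such a pairing. Replicate 2 was the deepest library in both D4 and D8 (relative depth of 1.63 and 1.70), and the part of depth in these correlations was not tested. In the other comparisons same-number pairs correlated at -0.13 to 0.27, in none above 0.1 for all 3. The alternatives were another pseudocount, other filters, rescaling, quantile normalization, a replicate block, fits of 2 groups, no minimum change, and leaving out each library. Tables and figures used Python 3.11.15 with pandas 2.3.3, numpy 2.4.6 and matplotlib 3.10.9.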

Additional observations from a re-analysis of the deposited data

How the results depend on the processing

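Of 756 recomputed counts of called genes, for 54 counts over lists and comparisons, 691 stayed within 1.5 times the reported count. For the 8 members that passed the filter, the signs of the changes against D0 and PN held in every alternative in which the member was tested. Prrxl1 was not recomputed, and the 5 FPKM filter left out some of the 8. The members were chosen with these levels known, so nothing is read from the signs. Between adjacent days, Phox2a went to -0.01 in D8 against D4 without D8 replicate 1, and Hmx1 to -0.04 and -0.01 in D16 against D8 without D8 replicate 2 and D16 replicate 1. The cause of a moved count was not tested except where fewer genes enter.

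With no minimum on the change, all genes called numbered 7587 in place of 3887 (D4 against D0), 8340 in place of 4524 (D8 against D0), 8775 in place of 4935 (D16 against D0), 467 in place of 281 (D8 against D4) and 8678 in place of 4840 (D16 against PN). LIM domain cofactors then numbered 5, 6, 5 and 7, in place of 1, 3, 3 and 4, in D4, D8 and D16 against D0 and D16 against PN. Family relatives numbered 16 in place of 10 in D16 against D0, and spinal factors 1 in place of 0 in D8 against D4.

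The filter at 5 FPKM, by which fewer genes were tested, left 7 family relatives, 7 other sensory factors, 4 spinal factors and 2 retinal partners in both D4 and D8 against D0, in place of 12, 11, 8 and 4 at D4 and 11, 11, 10 and 5 at D8. In D16 against D0 it left 6, 6, 4 and 3 of these lists, in place of 10, 14, 11 and 6, and in D16 against PN 7, 5, 4 and 3, in place of 11, 15, 11 and 6. It left 1 of 2 sensory effectors in D8 against D4.

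A pseudocount of 0.1 gave 0 sensory effectors in place of 2 and 1 spinal factor in place of 0 in D8 against D4. An equal total per library gave 2 LIM domain cofactors in place of 1 in D4 against D0 and 1 spinal factor in D8 against D4.

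The 4 calls between D16 and D8 became 0 with a pseudocount of 0.1, with the 5 FPKM filter and in the fit of the 2 groups, 1 with no filter and 2 with the replicate block. The 1 sensory effector became 0 in each of these and with quantile normalization. In D8 against D4, where the numbers appear to pair the samples, the replicate block gave 300.0 calls and moved no list by over 1.5 times. The only named call that the block removed in any comparison was that of Adcyap1 between D16 and D8.

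Leaving out 1 library gave 172 to 336 calls in D8 against D4 and 1 to 72 in D16 against D8. LIM domain cofactors ranged from 1 to 2 in D4 against D0 and 0 to 1 in D8 against D4. In D8 against D4, sensory effectors ranged from 0 to 3, autonomic factors 0 to 1, autonomic effectors 1 to 3 and spinal factors 0 to 2. In D16 against D8, sensory effectors, autonomic effectors and spinal factors each ranged from 0 to 1. Of 181 named calls, 14 were lost in at least 1 alternative. Unknown depth and levels near 0 limit the precision for Prrxl1 and for all members in D0 and PN.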

Other observations

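Some genes near the members were uneven among the D16 libraries. Evx1, a spinal interneuron factor, was at 0.133, 1.48 and 14.9 FPKM in D16 replicates 1, 2 and 3 and was below the filter, since it reached 1 FPKM in too few libraries. Runx3, a factor of muscle-sensing neurons, was at 1.70, 4.17 and 9.78 FPKM in D16 and 0.121, 0.860 and 1.06 FPKM in D0. Adcyap1 was at 12.1, 64.0 and 22.1 FPKM in D16. These genes were singled out after their values were seen.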
